A study of Mus musculus with 65 samples.

Results

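The genes described here load and display peptides for T cells. They comprise 10 genes found by symbol among the 50686 genes of the deposited count table, 6 of the class I pathway (H2-K1, H2-D1, B2m, Tap1, Psmb8 and Psmb9) and 4 of the class II pathway (H2-Aa, H2-Ab1, H2-Eb1 and Cd74). RNA was sequenced from whole retinas of 65 adult C57BL/6J mice in 16 groups. Control mice (CD, n = 5) received the AIN-76A diet. PLX5622, an inhibitor of the receptor CSF1R that microglia need to survive, was given in the same diet for 2, 5, 7, 10, 14 or 21 days (DEP2 to DEP21, 3 to 4 mice each, 23 in all). For repopulation, mice returned to control diet after 14 days of PLX5622 and were examined after 3, 5, 7, 10, 14 or 21 days or 2 months (REPOP3 to REPOP21 and REPOP60, 4 to 6 mice each, 30 in all). LPS, a bacterial endotoxin, was given systemically to mice on control diet (LPSCD, n = 3) and to mice that had received PLX5622 (LPSREPOP, n = 4). The labels give no length of repopulation for LPSREPOP. All mice were wild type, and PLX5622 acts on any cell that depends on CSF1R, so the depleted groups are not a model of microglia alone.

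Class I molecules sit on nearly all cells and show fragments of proteins made inside the cell. H2-K1 and H2-D1 encode the classical heavy chains and B2m encodes beta-2-microglobulin, the light chain that every class I molecule shares. Tap1 encodes one chain of the transporter that carries peptides into the endoplasmic reticulum, and Psmb8 and Psmb9 encode catalytic subunits of the immunoproteasome that cuts those peptides. Class II molecules show fragments of proteins taken up from outside and are made mainly by professional antigen-presenting cells. H2-Aa encodes the alpha chain and H2-Ab1 the beta chain of I-A, H2-Eb1 encodes the beta chain of I-E, and Cd74 encodes the invariant chain that guards the groove until the endosome. In C57BL/6 mice the partner chain of I-E is not made. Resting microglia carry little class II, and interferons and endotoxin are known to raise both pathways.

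Promoter sequence is shown for the genes whose levels moved together, 3 class I genes (H2-K1, H2-D1 and B2m) after LPS and 2 class II genes (H2-Aa and H2-Eb1) late in repopulation. The sequences are the 250 bases before the RefSeq start on GRCm38.p6, written 5′ to 3′ on the strand of the gene. Windows of 8 of the 10 members were searched. H2-Ab1 had no entry in the promoter set used. Cd74, which also rose late in repopulation, was left out of the search, so neither gene is shown or counted below. Capitals mark matches, on either strand, to AANNGAAA, a core letter pattern of interferon-response elements, to GGGNNTTCC, of the kappa-B type, and to ATTGG, of the Y box type. The patterns do not overlap one another in these windows.
H2-K1, chr17:34000348-34000597, minus strand: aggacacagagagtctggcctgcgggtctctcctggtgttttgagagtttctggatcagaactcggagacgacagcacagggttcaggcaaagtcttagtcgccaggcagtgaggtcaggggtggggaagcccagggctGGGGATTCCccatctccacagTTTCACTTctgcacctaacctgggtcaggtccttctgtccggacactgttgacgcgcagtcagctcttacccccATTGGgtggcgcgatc
H2-D1, chr17:35262844-35263093, plus strand: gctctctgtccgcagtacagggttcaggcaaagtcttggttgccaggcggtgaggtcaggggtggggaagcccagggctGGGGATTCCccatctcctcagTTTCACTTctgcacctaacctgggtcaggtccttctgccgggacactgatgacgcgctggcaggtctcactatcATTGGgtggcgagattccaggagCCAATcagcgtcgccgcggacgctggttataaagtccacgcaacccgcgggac
B2m, chr2:122147437-122147686, plus strand: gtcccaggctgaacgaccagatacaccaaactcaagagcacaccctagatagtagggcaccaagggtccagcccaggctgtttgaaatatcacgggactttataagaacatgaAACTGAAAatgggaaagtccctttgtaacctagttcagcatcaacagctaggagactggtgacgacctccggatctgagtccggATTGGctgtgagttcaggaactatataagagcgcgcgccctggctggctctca
H2-Aa, chr17:34287824-34288073, minus strand: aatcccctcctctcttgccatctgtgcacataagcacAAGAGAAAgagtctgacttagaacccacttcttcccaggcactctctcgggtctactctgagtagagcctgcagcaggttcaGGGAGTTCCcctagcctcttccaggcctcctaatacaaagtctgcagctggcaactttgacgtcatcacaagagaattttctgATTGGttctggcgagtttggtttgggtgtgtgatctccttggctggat
H2-Eb1, chr17:34305617-34305866, plus strand: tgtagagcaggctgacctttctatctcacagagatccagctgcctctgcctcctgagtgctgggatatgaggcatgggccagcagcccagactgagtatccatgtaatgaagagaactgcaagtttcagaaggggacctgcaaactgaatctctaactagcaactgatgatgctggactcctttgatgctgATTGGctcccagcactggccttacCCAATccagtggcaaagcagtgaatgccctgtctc

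H2-K1 and H2-D1 carried the same arrangement, a GGGNNTTCC match followed by an AANNGAAA match in reverse complement, at bases -111 to -103 and -90 to -83 of H2-K1 and at -171 to -163 and -150 to -143 of H2-D1, counted back from the RefSeq start. B2m had AANNGAAA at -137 to -130 and ATTGG at -53 to -49 but no GGGNNTTCC in this window. That pattern is a fixed spelling, and kappa-B sequences of other spelling or length were not searched. Its absence therefore does not show that B2m lacks such a sequence. H2-Aa held all 3 patterns, and H2-Eb1 held only ATTGG, at -59 to -55 and, in reverse complement, at -35 to -31. AANNGAAA was found in 4 of the 8 member windows and in 21.6% of 27025 mouse promoters of the same length. GGGNNTTCC was found in 3 of 8 and in 4.88% of all promoters, and ATTGG in 7 of 8 (all but Psmb8) and in 34.5%. The windows of Tap1 and Psmb9 overlap, so their ATTGG match is 1 site. The letters were chosen with these windows in view, and a match is a description of sequence, not a bound site.

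Of the 10 genes, 8 lie in the major histocompatibility complex on chromosome 17 of GRCm38, the build to which mm10 corresponds. H2-K1 (ENSMUSG00000061232) spans bases 33996017 to 34000347 on the minus strand, H2-D1 (ENSMUSG00000073411) spans 35262730 to 35267499 on the plus strand, and between them lie Psmb9 (34181987 to 34187764), Tap1 (34187553 to 34197225), Psmb8 (34197721 to 34201454), H2-Ab1 (34257689 to 34269419), H2-Aa (34282744 to 34287823) and H2-Eb1 (34305867 to 34316674). B2m (ENSMUSG00000060802) is on chromosome 2, bases 122147686 to 122153083, and Cd74 (ENSMUSG00000024610) is on chromosome 18, bases 60803848 to 60812652. Some reads cannot be given to 1 of these genes with certainty. H2-K1 shares 8.79% and H2-D1 14.3% of its 50-base windows exactly with other genes, mostly other class I genes, so the split of reads between the class I heavy chains is uncertain. Tap1 and Psmb9 overlap by 212 exonic bases on opposite strands, Psmb8 shares 498 exonic bases (14.7%) with the antisense gene Gm20496, and the strand setting of the counting is not given in the sources used here.

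The libraries held 5106429 to 8760443 counts in genes (median 7944665). The smallest was replicate 1 of REPOP21, and the next had 7367693. Sample titles end in RE (39 mice) or re (26 mice). The meaning of this suffix is not stated, and it was used as a covariate since it is the only division that the labels give. CD held 3 RE and 2 re mice, most depletion and repopulation groups 3 RE and 1 re, and REPOP60, LPSCD and LPSREPOP re mice alone. Between the suffixes B2m was lower in re than in RE mice by a log2 difference of -0.32 (SE 0.058) over all groups, and Tap1 was higher by 0.23 (SE 0.080). In class II, H2-Aa was higher in re mice by 0.13 (SE 0.056), Cd74 by 0.14 (SE 0.080), H2-Ab1 by 0.08 (SE 0.084) and H2-Eb1 by 0.03 (SE 0.066). These differences are in log2(CPM + 1), where CPM are counts scaled to the size of the library. The 4 markers of Mueller glia, the main glia of the retina, summed to 1574 to 2651 CPM over all mice, and the 4 lens markers to 0 to 51.1 CPM. A comparison of LPSCD, LPSREPOP or REPOP60 with CD therefore rests on the 2 re mice of CD, replicates 1 and 2M. Replicate 2M is labelled CD_2M and the REPOP60 mice are labelled RP2M. The labels do not say whether this control belongs to the time point of 2 months.

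Between genes, levels can be compared per length, as FPKM (fragments per kilobase of transcript, scaled to the reads of the library). The class I chains led, with a mean over 65 mice of 17.1 FPKM for B2m, 15.9 for H2-D1 and 9.83 for H2-K1. Tap1 (0.998), H2-Ab1 (0.995) and Psmb8 (0.651) followed, then Psmb9 (0.260), Cd74 (0.217), H2-Eb1 (0.0777) and H2-Aa (0.0425). These low values carry an error of their own, because a gene could be listed at 0 FPKM in a mouse that had reads for it. H2-Aa was listed at 0 in 55 mice, of which 30 had a count, and H2-Eb1 in 45, of which 33 had a count. The tests below therefore use the counts.

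**Figure D1:**
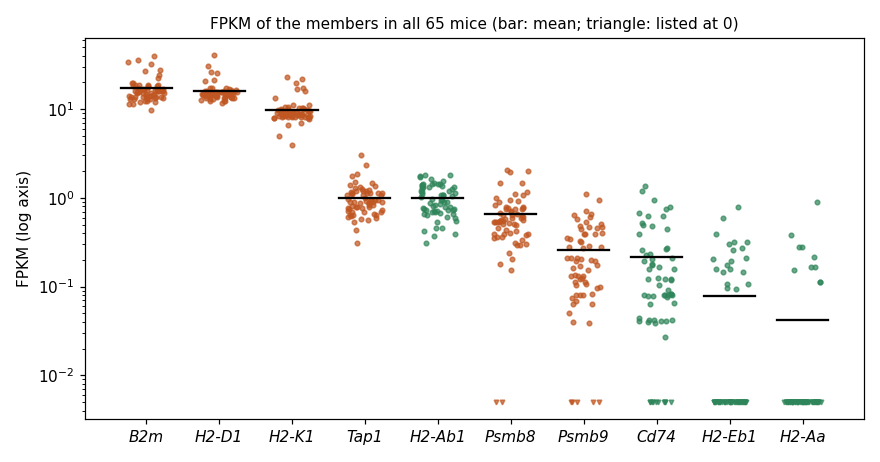
FPKM of each of the 10 genes in each of the 65 mice on a log axis, with genes ordered by their mean (bar), class I in orange and class II in green, and triangles at the foot of the axis for mice listed at 0. B2m, H2-D1 and H2-K1 stand at 9.83 to 17.1 on average, while H2-Aa and H2-Eb1 are listed at 0 in 55 and 45 mice.

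The read counts behind the genes set what can be seen. H2-K1 had 47 to 278 counts per mouse, H2-D1 153 to 645, B2m 92 to 388 and Tap1 14 to 77. Psmb8 had 2 to 27 and Psmb9 2 to 13. In class II, H2-Ab1 had 2 to 14 counts, Cd74 0 to 17 (0 in 9 mice), H2-Eb1 0 to 8 (0 in 12 mice) and H2-Aa 0 to 7 (0 in 25 mice). A count of 0 allows up to 3 counts, which at the greatest depth is 0.342 and at the lowest depth 0.587 CPM, so in most mice H2-Aa and H2-Eb1 lay under this limit. All intervals on counts below are 95% intervals that cover counting error only.

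LPS raised the 3 class I chains, whereas no class II gene passed the test after LPS. H2-K1 was at 11.6, 12.7, 11.6, 11.7 and 21.5 CPM in the 5 CD mice, at 24.3, 29.9 and 34.4 CPM in the 3 LPSCD mice and at 25.3, 35.8, 34.3 and 20.2 CPM in the 4 LPSREPOP mice. It was at 11.8, 14.3, 14.01 and 12.4 CPM in the 4 REPOP60 mice. All LPSCD mice lay above all CD mice and all LPSREPOP mice above all REPOP60 mice, while 1 LPSREPOP mouse lay below the highest CD mouse. That CD mouse, replicate 2M, was also the highest of its group for H2-D1, and its H2-K1 level was 10.4 FPKM beside 8.05 to 8.68 FPKM in the other 4.

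H2-D1 was at 27.6, 27.2, 28.8, 26.9 and 34.3 CPM in CD and at 41.2, 50.3 and 80.9 CPM in LPSCD. It was at 40.3, 58.8, 54.1 and 34.6 CPM in LPSREPOP and at 28.3, 29.9, 30.1 and 30.8 CPM in REPOP60. All 7 LPS mice lay above all 58 mice without LPS, the lowest of them by a small margin (34.6 against 34.3 CPM). B2m was at 14.8, 20.1, 24.8, 18.2 and 21 CPM in CD and at 34.0, 29.5 and 40.6 CPM in LPSCD. It was at 42.8, 37.9, 49.1 and 27.01 CPM in LPSREPOP and at 20.6, 17, 18.4 and 20.2 CPM in REPOP60. The LPS groups did not overlap CD or REPOP60 for B2m, but 1 REPOP10 mouse reached 32.2 CPM. The share of all genes that separate the same mice is not given here, so these separations are descriptions only.

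**Figure D2:**
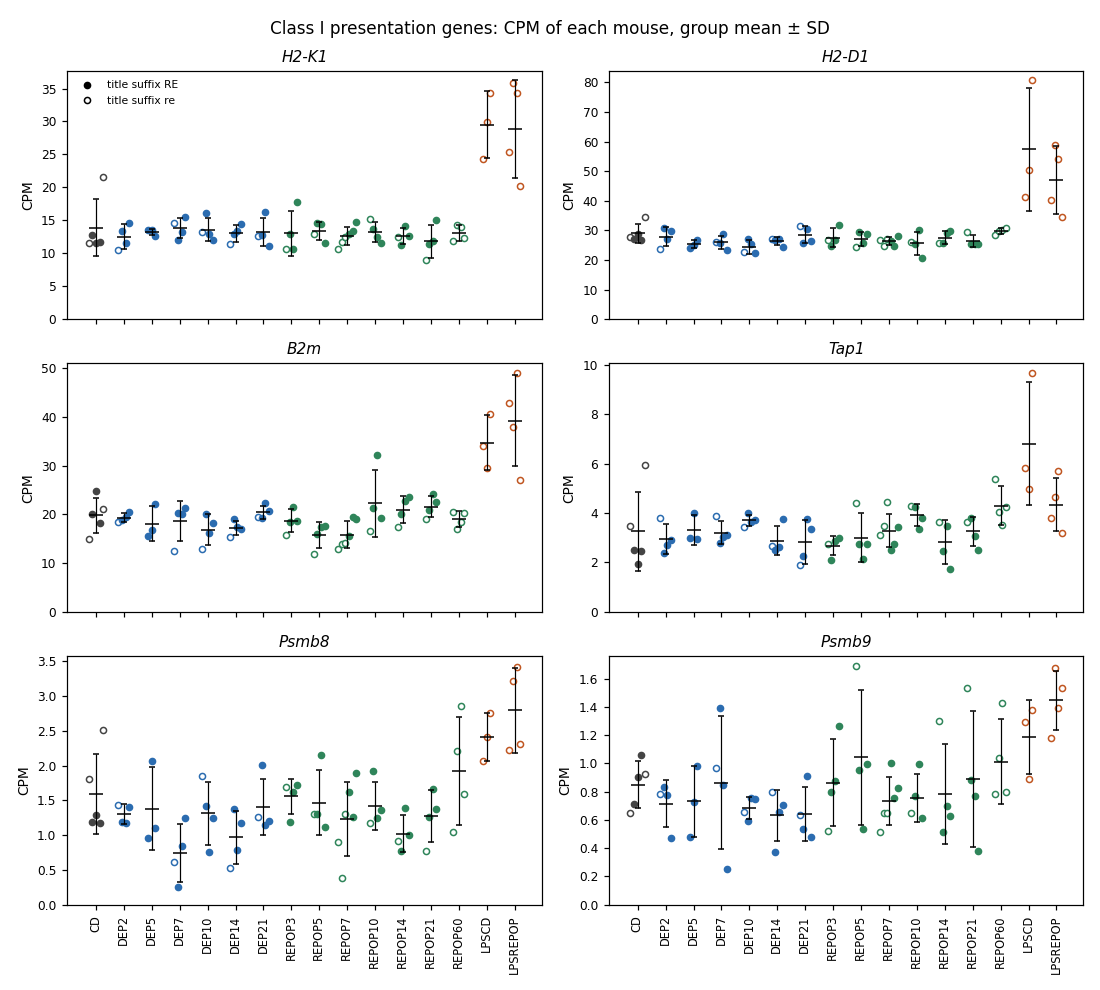
CPM of the 6 class I genes in each mouse of the 16 groups, with the group mean and SD in black, filled points for RE mice and open points for re mice. H2-K1, H2-D1 and B2m have their highest group means, 28.9 to 57.4 CPM, in LPSCD and LPSREPOP. For Tap1, Psmb8 and Psmb9 the LPS mice as a set overlap the mice without LPS. Psmb9 in LPSREPOP (1.18 to 1.68 CPM) lies above CD (0.645 to 1.06 CPM) but overlaps REPOP60. The share of all genes that separate the same mice is not given here.

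In LPSREPOP against REPOP60 all mice carried the same title suffix. The labels do not show that these groups match in time since PLX5622. H2-K1 rose by 1.14 on the log2 scale (SE 0.14, edgeR FDR 1.05e-05, the p-value adjusted over all genes tested), a fold of 2.20. B2m rose by 1.04 (SE 0.12, edgeR FDR 9.68e-06) and H2-D1 by 0.65 (SE 0.11, edgeR FDR 0.000867). These 3 of 6 class I genes passed among 2.92% of all 24927 genes tested (1.87% higher), and they passed with each of the 8 mice left out in turn. On the log2 FPKM scale with limma none of the 3 passed, with changes in the same direction. Psmb8 (0.53, SE 0.28), Psmb9 (0.50, SE 0.34) and Tap1 (0.01, SE 0.20) did not pass. The median log2 fold change was 0.59 over the 6 class I genes and -0.01 over all genes.

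In mice on control diet, LPSCD against CD, 0 of the 10 genes passed with edgeR's quasi-likelihood test, and 0.0466% of all genes did. H2-K1 (0.83, SE 0.22, edgeR FDR 0.225), H2-D1 (0.89, SE 0.22, edgeR FDR 0.205) and B2m (0.95, SE 0.19, edgeR FDR 0.129) were the 3 of the 10 at an unadjusted p under 0.05. So were 2486 of all 23606 genes. The same 3 passed with group as the only term, when 2.43% of all genes did, and with the likelihood ratio test, when 225 of all genes did. DESeq2 called H2-D1 and B2m among 94 of all genes. A fit of all 16 groups called the 3 chains and Tap1 (0.90, edgeR FDR 0.00531) among 1957 of all genes. The size of the change rested on which of the 2 re mice of CD was kept. H2-K1 was 1.34 higher without CD replicate 2M and 0.45 higher without CD replicate 1, and B2m 1.22 and 0.72, with no gene of the 10 passing in either case.

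LPSREPOP against CD gave 2 of 10 genes, H2-K1 (0.80, SE 0.19, edgeR FDR 0.0490) and B2m (1.13, SE 0.18, edgeR FDR 0.000906), beside 0.503% of all genes (0.4% higher). H2-D1 was 0.60 higher (SE 0.15, edgeR FDR 0.0620). With group as the only term all 3 passed, and so did 1.34% of all genes. H2-K1 lost its call with 7 of the 9 mice left out in turn and B2m with 4 of 9. Without CD replicate 1 the changes were 0.42 for H2-K1 and 0.90 for B2m, and without CD replicate 2M they were 1.31 and 1.40.

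Both LPS groups were then set together against CD and REPOP60 among re mice alone, a comparison added after the data were seen. H2-K1 rose by 0.98 (SE 0.13, edgeR FDR 1.38e-05), B2m by 0.99 (SE 0.11, edgeR FDR 1.59e-06) and H2-D1 by 0.77 (SE 0.12, edgeR FDR 0.000141). They belonged to 4.94% of all genes that passed (2.85% higher) and kept their calls with each of 13 mice left out. Tap1 was 0.27 higher (SE 0.19), Psmb8 0.34 (SE 0.23) and Psmb9 0.54 (SE 0.30), and none of these passed.

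The response of the 10 genes to LPS was not seen to differ between LPSREPOP and LPSCD. In the direct comparison 0 of 10 genes and 0% of all genes passed with edgeR, with 2 of the 10 and 1973 of all 24500 genes at an unadjusted p under 0.05, and the likelihood ratio test and DESeq2 also gave 0 in both. The fit of all 16 groups gave 0 of 10 and 411 of all genes. H2-K1 differed by -0.03 (SE 0.18), H2-D1 by -0.29 (SE 0.21) and B2m by 0.18 (SE 0.17). The 2 genes at an unadjusted p under 0.05 were Tap1 (-0.65, SE 0.26), at 4.96, 5.81 and 9.66 CPM in LPSCD against 3.20 to 5.69 CPM in LPSREPOP, and H2-Aa (3.10, SE 1.09), which had 0, 1 and 0 counts in LPSCD and 7, 2, 1 and 5 in LPSREPOP. The test of the difference between the LPS effects, LPSREPOP minus REPOP60 against LPSCD minus CD, also gave 0 of 10 genes and 0% of all genes with edgeR, the likelihood ratio test and DESeq2, and 0 of 10 and 5 of all genes in the fit of all 16 groups. One of the 10, Cd74 (-1.95, SE 0.90), and 1519 of all genes had an unadjusted p under 0.05. These groups are small, and a p that misses the threshold does not show that the responses were alike.

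Among other class I pathway genes, 2 of 17 rose in LPSREPOP against REPOP60 and none fell, with a median of 0.16 beside -0.01 over all genes, of which 2.92% passed and 1.87% were higher and passed. They were H2-Q4, a non-classical heavy chain (1.14, SE 0.20, edgeR FDR 0.000985), and Pdia3, a disulfide isomerase of the peptide-loading complex (0.29, SE 0.074, edgeR FDR 0.0261). H2-Q4 was at 3.54 ± 0.355 CPM in REPOP60 (SD, n = 4), 7.83 ± 2.35 in LPSREPOP (n = 4) and 8.84 ± 1.91 in LPSCD (n = 3), and it shares sequence with H2-K1 and H2-D1. In the comparison of re mice 3 of 17 rose beside 2.85% of all genes, H2-Q4, the second transporter chain Tap2 (0.47, SE 0.10, edgeR FDR 0.00426) and the proteasome activator Psme1 (0.35, SE 0.094, edgeR FDR 0.0231). Psmb5, Psmb6 and Psmb7, the catalytic subunits of the standard proteasome, gave 0 of 3 in each LPS comparison, with 0 at an unadjusted p under 0.05. In LPSCD against CD and in LPSREPOP against CD 0 of the 17 passed with edgeR, with 4 at an unadjusted p under 0.05 in each. Of 12 interferon signalling genes 0 passed in these comparisons with CD (1 at an unadjusted p under 0.05 in each), and 1 rose both against REPOP60 and among re mice, the transcription factor Irf7 (0.96 and 1.22, edgeR FDR 0.0121 and 0.000508).

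No class II gene passed in an LPS comparison with edgeR or with any alternative run. Cd74 had 3, 4 and 7 counts in LPSCD and 4, 12, 10 and 8 in LPSREPOP, against 2, 2, 4, 7 and 1 in CD and 9, 12, 8 and 16 in REPOP60. All LPSCD mice lay above the 2 re mice of CD (2 and 1 counts) but not above all CD mice, and LPSREPOP overlapped REPOP60. Cd74 was 1.52 higher in LPSCD against CD (SE 0.83, edgeR FDR 0.548) and 2.39 higher in LPSREPOP against CD (SE 0.74, edgeR FDR 0.233), the latter at an unadjusted p under 0.05. Against REPOP60 it was -0.43 in LPSREPOP (SE 0.36), and the labels do not show that REPOP60 matches LPSREPOP in time since PLX5622. H2-Aa differed by -2.26 in LPSCD against CD (SE 1.49, edgeR FDR 0.612), on 0, 1 and 0 counts against 0, 2, 0, 1 and 4. In LPSREPOP against REPOP60 the 4 class II genes differed by -0.43 to 0.07, with a median of -0.27. Ctss, which encodes the cathepsin S that cuts the invariant chain, was the 1 gene of 12 tested on the list of other class II genes to pass, at 1.17 (SE 0.17, edgeR FDR 0.000160) against REPOP60, 1.21 (edgeR FDR 0.00892) in LPSREPOP against CD and 1.72 (edgeR FDR 0.0198) in LPSCD against CD.

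**Figure D3:**
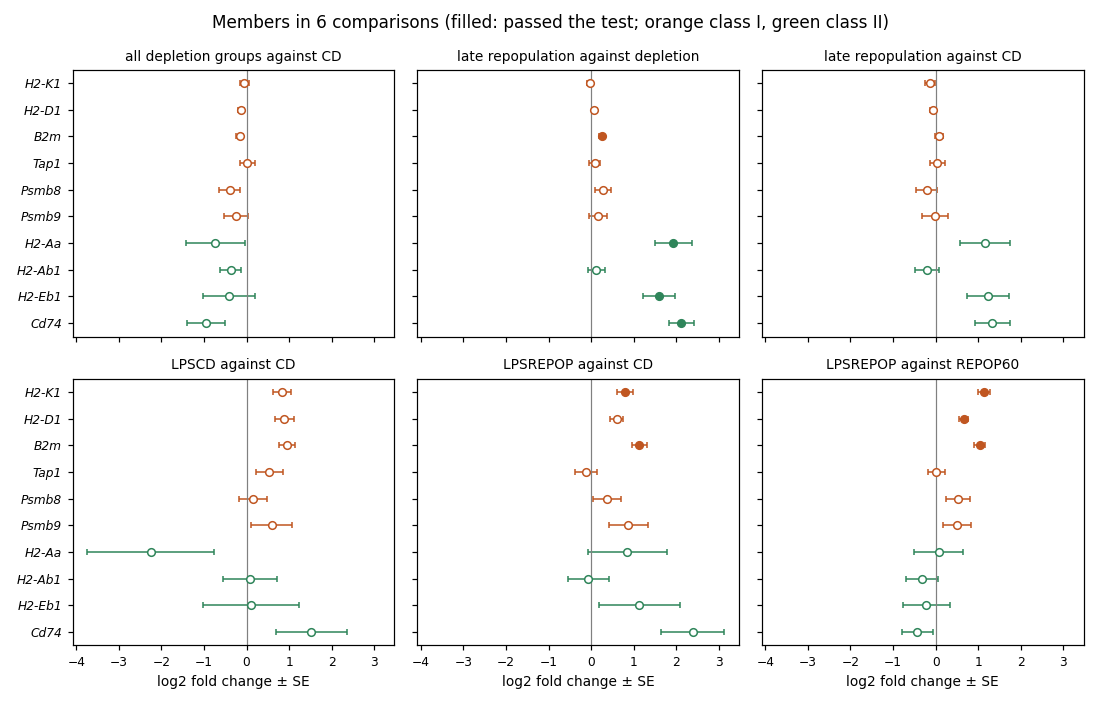
log2 fold changes with their SE for the 10 genes in 6 comparisons, filled where the gene passed at an edgeR FDR under 0.05, with class I in orange and class II in green. Class I genes passed after LPS (H2-K1 and B2m in 2 panels, H2-D1 in 1) and class II genes in late repopulation against depletion (H2-Aa, H2-Eb1 and Cd74), where B2m also passed at 0.24.

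Markers of cell types were summed in the same mice. The 10 microglial markers reached 44.1 to 61.4 CPM in CD, 45.0 to 52.0 in REPOP60, 75.4 to 83.0 in LPSCD and 54.0 to 72.7 in LPSREPOP, so they were higher in every LPS mouse than in every REPOP60 mouse. The 6 monocyte and neutrophil markers were at 0 to 4.25 CPM in CD, 0 to 0.524 in REPOP60, 1.13 to 2.97 in LPSCD and 0.768 to 8.98 in LPSREPOP. Of these markers, Ly6g and Ccr2 never passed 1 count in a mouse, and Ly6c2 and Plac8 never passed 3. S100a8 and S100a9 reached 22 and 43 counts. The 6 markers of endothelium, a cell type known for class I, were at 239 to 259 CPM in CD, 230 to 261 in REPOP60, 214 to 288 in LPSCD and 237 to 281 in LPSREPOP. Their part in the class I results was not tested. In bulk retina, fewer cells of a type and less RNA per cell cannot be told apart.

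Depletion left all 10 genes without a call. With edgeR, 0 of 60 tests (10 genes on 6 days) passed, with 5 at an unadjusted p under 0.05, or 8.33% beside 5.36% of all genes. The likelihood ratio test, DESeq2, the fit without the suffix, the fit of all 16 groups and limma on FPKM also gave 0. Over all genes the share that passed was 0.109% at DEP2, 0.0646% at DEP5, 0.108% at DEP7, 0.096% at DEP10, 0.067% at DEP14 and 0.139% at DEP21. Since all 6 comparisons use the same CD mice, they are not independent of one another.

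None of the 3 class I chains passed on any day of depletion, although H2-D1 lay below CD by more than either group's SD at DEP5 (25.3 ± 1.37 CPM, n = 3) and DEP10. H2-K1 had group means from 12.5 ± 1.87 CPM at DEP2 (SD, n = 4) to 13.8 ± 1.52 at DEP7 (n = 4), beside 13.8 ± 4.32 in CD (n = 5). H2-D1 ranged from 24.3 ± 2.23 at DEP10 (n = 4) to 28.5 ± 2.86 at DEP21 (n = 4), beside 29.0 ± 3.08 in CD. B2m ranged from 16.8 ± 3.16 at DEP10 to 20.4 ± 1.41 at DEP21, beside 19.8 ± 3.65 in CD. At DEP10 H2-D1 differed by -0.24 (SE 0.097, edgeR FDR 0.760) and B2m by -0.28 (SE 0.12, edgeR FDR 0.760). In the contrast of all depletion groups with CD, which 0.223% of all genes passed, H2-K1 differed by -0.05 (SE 0.11), H2-D1 by -0.13 (SE 0.069) and B2m by -0.16 (SE 0.086). Tap1 differed by 0.02 (SE 0.18), Psmb9 by -0.25 (SE 0.28) and Psmb8 by -0.40 (SE 0.24).

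All 4 class II genes had negative estimates in that contrast and none passed. Cd74 differed by -0.95 (SE 0.45, edgeR FDR 0.834), H2-Aa by -0.74 (SE 0.69), H2-Eb1 by -0.42 (SE 0.61) and H2-Ab1 by -0.37 (SE 0.25). Cd74 was the 1 gene of the 10 at an unadjusted p under 0.05, beside 1558 of all 26482 genes. It had 2, 2, 4, 7 and 1 counts in CD and 0 to 5 counts, with 2 mice at 0, in the 23 depleted mice. The pooled counts were 42 in depletion and 16 in CD, a ratio of CPM of 0.565 with an interval of 0.311 to 1.08 that includes no change. H2-Ab1, the best covered class II gene, had 173 counts in depletion and 48 in CD, a ratio of 0.776 (0.561 to 1.09). The intervals were wider for H2-Aa (ratio 0.554, 0.221 to 1.57) and H2-Eb1 (0.766, 0.357 to 1.82). Each of the 4 intervals includes no change as well as a fall, and the smallest fall that could be seen at this depth was not computed.

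The same mice showed what a gene of microglia did. Ctss, from the list of other class II pathway genes, fell on every day of depletion. It was at 6.99 ± 2.58 CPM in CD (SD, n = 5), 0.457 ± 0.186 at DEP2 (n = 4) and 0.0917 ± 0.119 at DEP14 (n = 4), and it fell by 5.80 on the log2 scale in all depletion groups against CD (SE 0.26, edgeR FDR 4.94e-20). Of the 13 other class II genes tested, Ctss and the co-stimulatory ligand Cd86 (-3.47, SE 0.73, edgeR FDR 0.0324) fell, and Rfx5, a factor that binds class II promoters, rose (0.24, SE 0.055, edgeR FDR 0.0461). Of 17 other class I genes 0 passed in this contrast, with 2 at an unadjusted p under 0.05 and a median of -0.05 beside -0.01 over all genes. On single days Calr, a chaperone of class I, fell at DEP21 (-0.34, SE 0.068, edgeR FDR 0.0322). Irf8, a transcription factor of microglia, was the 1 interferon signalling gene of 12 to pass (-1.05, SE 0.24, edgeR FDR 0.0330). The summed microglial markers were at 20.5 to 31.4 CPM in depletion, below the 44.1 to 61.4 CPM of CD. The perivascular macrophage markers were at 16.1 to 25.2 CPM beside 16.5 to 23.1. This second sum rests on Lyve1 and Stab1, with medians of 125 and 38 counts over all mice. Mrc1, Cd163, F13a1 and Pf4 had a median of 0, so the sum does not show whether these cells were kept.

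Class II genes were higher late in repopulation than during depletion. H2-Aa had 4, 0, 1 and 4 counts at REPOP14, 3, 4, 3 and 7 at REPOP21 and 5, 3, 3 and 3 at REPOP60, against 0 to 2 counts (median 0.119 CPM) in the 23 depleted mice. Cd74 had 5, 2, 7 and 3 counts at REPOP14, 17, 7, 7 and 14 at REPOP21 and 9, 12, 8 and 16 at REPOP60, against 0 to 5 counts (median 0.237 CPM). For both genes every REPOP21 and REPOP60 mouse lay above every depleted mouse on the CPM scale, and 10 of the 12 late mice did. These CPM are not adjusted for the suffix, and the share of all genes that separate the same mice is not given here. H2-Eb1 had 3, 5, 3 and 3, then 5, 6, 2 and 8, then 2, 5, 4 and 5 counts in the same groups and overlapped the depleted mice, which had 0 to 6 counts.

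**Figure D4:**
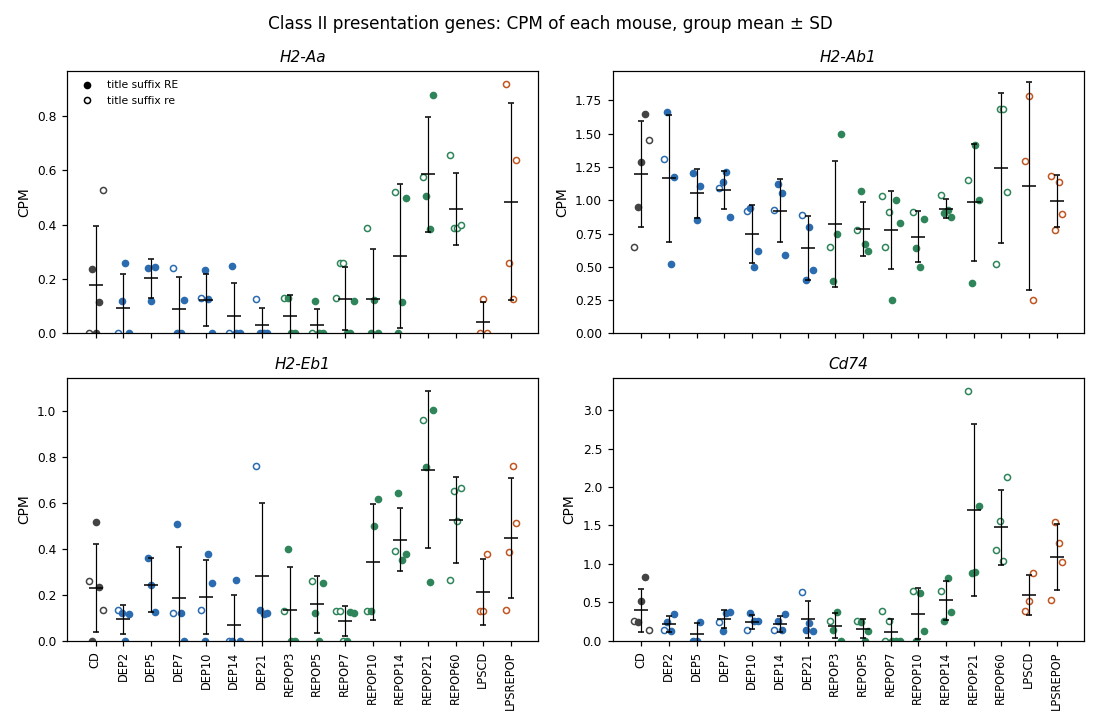
CPM of the 4 class II genes in each mouse of the 16 groups, with the group mean and SD in black, filled points for RE mice and open points for re mice. Cd74 and H2-Aa in REPOP21 and REPOP60 (at least 0.883 and 0.385 CPM) lie above all depleted mice (at most 0.632 and 0.259 CPM), and H2-Ab1 overlaps throughout.

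In the contrast of REPOP14, REPOP21 and REPOP60 with the 6 depletion groups, 4 of the 10 genes passed and all 4 were higher, beside 0.318% of all genes (0.275% higher). Cd74 rose by 2.11 (SE 0.29, edgeR FDR 5.68e-06), a fold of 4.33, and kept its call in all 11 alternatives run and with each of the 35 mice left out. H2-Aa rose by 1.93 (SE 0.44, edgeR FDR 0.0202) and H2-Eb1 by 1.60 (SE 0.37, edgeR FDR 0.0296), and these calls were less stable, holding in 6 and 5 of 10 alternatives and being lost with 5 and 10 of 35 mice left out. H2-Ab1 differed by 0.11 (SE 0.20). In class I, B2m rose by 0.24 (SE 0.059, edgeR FDR 0.0461), a call that was lost with 17 of 35 mice left out and in 7 of 11 alternatives, and 0 of the other 5 class I genes passed or had an unadjusted p under 0.05.

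Pooled counts describe the same reads again, without adjustment for the suffix, and are no further support. Their intervals leave out the spread between mice. Cd74 had 107 counts in 12 late mice and 42 in 23 depleted mice, a ratio of CPM of 5.17 (95% interval 3.59 to 7.57). The ratio was 4.51 for H2-Aa (2.53 to 8.35) and 3.23 for H2-Eb1 (2.04 to 5.20), but 1.13 for H2-Ab1 (0.868 to 1.45). The interval of H2-Ab1 lies below those of the other 3 genes. Without replicate 1 of REPOP21, the shallowest library and the one with 17 counts of Cd74, the Cd74 ratio was 4.61 (3.16 to 6.82). Earlier in repopulation, from day 3 to day 10 (18 mice), the ratios to depletion were 0.836 for Cd74 (0.496 to 1.39), 0.842 for H2-Ab1, 0.939 for H2-Aa and 0.975 for H2-Eb1. By day the group means of H2-Eb1 ran from 0.0836 ± 0.0649 CPM at REPOP7 (SD, n = 6) to 0.343 ± 0.251 at REPOP10 (n = 4), beside 0.173 ± 0.185 in depletion (n = 23). Those of Cd74 ran from 0.108 ± 0.172 at REPOP7 to 0.348 ± 0.335 at REPOP10, beside 0.225 ± 0.140 in depletion, and for both genes the mice of these groups overlapped.

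Single days of repopulation were also compared with CD. Outside day 21, 0 of 60 tests passed with edgeR, with 5 at an unadjusted p under 0.05, or 8.33% beside 6.08% of all genes. None passed with the likelihood ratio test, DESeq2, the fit without the suffix, the fit of all 16 groups or limma on FPKM. The share of all genes that passed was 0.0629% at REPOP3, 0.0756% at REPOP5, 0.089% at REPOP7, 0.365% at REPOP10, 0.0125% at REPOP14 and 0% at REPOP60, where 779 genes had an unadjusted p under 0.05 and the likelihood ratio test passed 2 and DESeq2 0. At REPOP21 Cd74 passed (2.02, SE 0.48, edgeR FDR 0.0292) among 1.9% of all genes. Cd74 had its largest estimate of a single day at REPOP60 (2.82, SE 0.67, edgeR FDR 0.655), which did not pass and rests on the 2 re mice of CD. The call at REPOP21 was lost with 8 of the 9 mice left out in turn and held in 4 of 9 alternatives. The 451 genes that passed at REPOP21 became 0 without the suffix covariate and 2 in the fit of all 16 groups. Without REPOP21 replicate 1 the change of Cd74 was 1.13.

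Late repopulation was set against CD as well, to ask how the genes stood beside control retina. With edgeR 0 of the 10 genes passed, beside 0.0508% of all genes. At an unadjusted p under 0.05 were 2399 of all 25600 genes and 2 of the 10 (3 with the likelihood ratio test and 2 with DESeq2, which also passed 0). With edgeR the 2 were Cd74 (1.33, SE 0.41, edgeR FDR 0.439) and H2-Eb1 (1.22, SE 0.49, edgeR FDR 0.461). On pooled counts the late mice had a Cd74 ratio to CD of 2.92 (1.72 to 5.30), H2-Aa 2.50 (1.11 to 6.61), H2-Eb1 2.48 (1.21 to 5.72) and H2-Ab1 0.874 (0.612 to 1.26). These intervals leave out the spread between mice, so they do not stand in for the edgeR test. In group means Cd74 ran from 1.70 ± 1.12 CPM at REPOP21 (SD, n = 4) and 1.48 ± 0.488 at REPOP60 (n = 4) to 0.393 ± 0.278 in CD (n = 5) and 0.0818 ± 0.142 at DEP5 (n = 3).

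Ctss again gave the time course of a microglial gene beside the class II genes. It was at 0.0844 ± 0.103 CPM at REPOP7 (SD, n = 6), 1.22 ± 1.01 at REPOP10 (n = 4), 4.41 ± 0.985 at REPOP14 (n = 4), 6.99 ± 1.30 at REPOP21 (n = 4) and 4.72 ± 0.566 at REPOP60 (n = 4). It rose by 5.31 in late repopulation against depletion (SE 0.23, edgeR FDR 1.22e-23), as the 1 gene of 13 tested on the list of other class II genes, whose median was 0.22. Of the 17 other class I genes 0 passed (2 at an unadjusted p under 0.05, median 0.05), and of the 12 interferon signalling genes 0 passed (2 at an unadjusted p under 0.05, median 0.03), beside 0.00117 over all genes. The microglial markers summed to 38.6 to 52.0 CPM in late repopulation, above all depleted mice and overlapping CD. The dendritic cell markers were at 8.82 to 13.5 CPM beside 8.34 to 13.8 in depletion. Of these, Zbtb46, Flt3 and Xcr1 had medians of 51, 29 and 4 counts over all 65 mice. Clec9a and Itgax had 3 counts or fewer, and Cd209a had 0 in all mice. The B cell markers were at 0.697 to 1.57 CPM beside 0.379 to 2.28, and the T cell markers at 0.257 to 1.17 beside 0 to 1.57. Among the T cell markers, Cd3d, Cd3e and Cd3g had 1 count or fewer, and Cd4 and Cd8a reached 8 and 7. The part of these cells in the class II results was not tested.

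Ordered by group mean, the 3 class I chains placed the LPS groups first and left the other 14 groups in 1 run. For H2-K1 the order was LPSCD (29.5 ± 5.06 CPM, n = 3), LPSREPOP (28.9 ± 7.42, n = 4) and CD (13.8 ± 4.32, n = 5), down to REPOP21 (11.8 ± 2.49, n = 4). For H2-D1 it was LPSCD (57.4 ± 20.8), LPSREPOP (46.9 ± 11.4) and REPOP60 (29.8 ± 1.04, n = 4), down to DEP10 (24.3 ± 2.23). For B2m it was LPSREPOP (39.2 ± 9.32), LPSCD (34.7 ± 5.60) and REPOP10 (22.3 ± 6.88, n = 4), down to REPOP5 (15.7 ± 2.62, n = 4). For each of the 3 genes 1 of the 15 steps between neighbours exceeded the larger of the neighbours' SDs, the step from the second LPS group to the first group without LPS. For Cd74 the 1 such step was from LPSREPOP (1.09 ± 0.433, n = 4) to LPSCD (0.591 ± 0.256, n = 3), and for the other 6 genes 0 of 15 steps did.

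Likeness of pattern was measured as Pearson's r between group means of log2(CPM + 1), after the suffix effect was removed, over the 15871 genes that averaged 1 CPM or more. It is a description over group means that share libraries and controls. Over 16 groups the class I mean was most like Rnase4 (0.960), Cd34 (0.959), Cyfip1 (0.957), Rasgef1a (0.956) and Camk2g (0.954), and the r of these 5 over the 14 groups without LPS was 0.429 to 0.736. Over the 14 groups without LPS the closest were Smpd3 (0.840), Thpo (0.835), Gsc2 (0.822), Efhd2 (0.821) and Gm26694 (0.794). For the class II mean the closest over 16 groups were Mkln1os (0.798), Myh14 (0.797), Ppp1r3b (0.788), 2410018L13Rik (0.787) and Plek (0.760). Over the 14 groups without LPS they were Med1 (0.888), Lyz2 (0.868), Mpeg1 (0.841), Plek (0.838) and Ctss (0.837), of which Lyz2, Mpeg1, Plek and Ctss are genes of macrophages and related myeloid cells.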

How the data were processed

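RNA from each retina was sequenced as 50-base single-end reads on a BGISEQ-500. Per the study's methods, the authors aligned the reads to mm10 with HISAT2, made raw counts per gene with HTSeq and FPKM with StringTie (versions not given in the sources used here). The deposited count and FPKM tables hold 50686 genes, and no sample column was left unused. Counts were tested with edgeR 4.0.16 in R 4.3.3 by quasi-likelihood F tests with TMM scaling, 1 fit per comparison, on genes that had 1 count or more in 50% of the mice, or more, of a compared group. The title suffix was a covariate, because the study's edgeR model has a batch term whose batches are not named. A gene passed at an FDR (Benjamini-Hochberg over all genes tested) under 0.05. FPKM served for levels between genes and for limma 3.58.1 on log2(FPKM + 0.1) and log2(FPKM + 1). CPM used TMM library sizes over all mice. DESeq2 1.42.0 and further alternatives were run, and the fits were tested on simulated data. The members and lists were chosen with earlier results of these data known. All members are named, and of a list those that passed, at most the 5 of smallest FDR. Whether mice of a group shared a cage or litter is not stated, so p-values measure the spread between these mice.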

Additional observations from a re-analysis of the deposited data

Results flagged for a closer look

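In 16 of 140 pairs of a gene and a group of 4 to 6 mice, 1 mouse lay apart from the others by Dixon's test, where chance gives about 1 in 20, or 7. In class I, CD replicate 2M was high for H2-K1 (21.5 CPM, the nearest mouse at 12.7) and for H2-D1 (34.3 CPM, nearest 28.7). H2-D1 was low in DEP14 replicate 4 (24.2 CPM, nearest 26.7) and high in REPOP21 replicate 1, the shallowest library (29.3 CPM, nearest 25.5). B2m was low in DEP7 replicate 1 (12.5 CPM, nearest 20.1), Tap1 high in DEP14 replicate 4 (3.75 CPM, nearest 2.65), Psmb8 high in DEP21 replicate 2 (2.01 CPM, nearest 1.26) and Psmb9 low in DEP2 replicate 4 (0.469 CPM, nearest 0.778).

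In class II the mice that lay apart differed by 6 counts or fewer. H2-Aa was above the rest of its group in DEP14 replicate 2 (0.250 CPM), DEP21 replicate 1 (0.126 CPM) and REPOP5 replicate 2 (0.119 CPM), whose other mice were at 0, and in REPOP60 replicate 1 (0.655 CPM, nearest 0.399). H2-Eb1 was at 0 CPM in DEP2 replicate 3 (nearest 0.117) and above the rest in DEP14 replicate 3 (0.263 CPM, nearest 0), DEP21 replicate 1 (0.759 CPM, nearest 0.134) and REPOP14 replicate 2 (0.644 CPM, nearest 0.390). A count of 1 or 2 reads is enough for several of these, and no cause was tested.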

How the results depend on the processing

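No value changed sign past the threshold under any alternative run, and, apart from left-out mice, 234 counts of members that passed stayed within 1.5 times the main count and 30 did not. In REPOP21 against CD the 1 gene became 0 with group as the only term, all 16 groups in 1 fit, DESeq2, filterByExpr, limma on FPKM with either pseudocount, RE mice alone, and an FDR under 0.01 with a log2 fold change beyond 1 (0 to 1 with a mouse left out). In late repopulation against depletion the 4 genes became 1 with the replicate block, filterByExpr, limma on FPKM with either pseudocount, RE mice alone and the strict threshold (1 to 4 with a mouse left out), and that gene was Cd74 under the replicate block (1.92, edgeR FDR 0.00295). In LPSCD against CD the 0 genes became 3 with group as the only term, the likelihood ratio test or no gene filter, 2 with DESeq2, 4 with all 16 groups and 1 with the replicate block (0 to 3 with a mouse left out). In LPSREPOP against CD the 2 genes became 1 with DESeq2, RLE scaling, filterByExpr, re mice alone and the strict threshold, and 0 with limma on FPKM (0 to 3 with a mouse left out). In LPSREPOP against REPOP60 the 3 genes became 0 with limma on FPKM, and among re mice the 3 became 0 at the strict threshold. The causes were not tested. Counts over all genes moved too, in LPSCD against CD from 11 to 1957 with all 16 groups, in LPSREPOP against CD from 122 to 397, and in LPSREPOP against LPSCD from 0 to 411. As measured, same-numbered mice had every pair's correlation over 0.1 in 8 of 17 comparisons, all with 1 re mouse under the same number in both groups, and in 0 of 17 with the suffix effect removed, so the numbers were not taken to pair the mice, and the replicate block changed no other call count. Depth limits class II most, since H2-Aa and H2-Eb1 lay mostly below 3 counts.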
